A study of Mus musculus with 10 samples.

Results

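T cell genes were followed across all 10 libraries of a study of mouse fat. The 10 genes were Cd3d, Cd3e, Cd3g, Cd4, Cd8a, Cd8b1, Lck, Tcf7, Lef1 and Foxp3, chosen by symbol as markers of T cells, and each was found once among the 30319 named genes of the deposited table. Whole inguinal mammary fat pads of female FVB mice had been sequenced as total RNA with ribosomal RNA depleted. Animals were either wild type or FAP-/- (null for fibroblast activation protein, a membrane protease of activated fibroblasts), and they ate a diet with 10% or 60% of calories from fat from 12 to 30 weeks of age. The groups were WT_LFD (wild type, low-fat, n = 2), Null_LFD (FAP-/-, low-fat, n = 3), WT_HFD (wild type, high-fat, n = 2) and Null_HFD (FAP-/-, high-fat, n = 3). The labels give neither the design of the null allele nor whether lymph nodes were taken out of the pads. The series describes its samples as biological replicates.

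The labels name wild-type and null mice, and Fap measured 37.7 to 68.8 TPM (transcript abundance scaled to a fixed library total) in the 4 wild-type libraries and 18.3 to 38.4 TPM in the 6 null libraries, with overlap because Null_HFD 2 (38.4 TPM) exceeded WT_HFD 2 (37.7 TPM). The labels do not say which part of the gene is deleted, so its total level does not check each label. The adipocyte hormone gene Adipoq was high in every library (752 to 3206 TPM), as fits the labelled tissue. The libraries WT_HFD 2 and Null_HFD 3 were rich in transcripts of lymph nodes. They are kept apart from the other 8 throughout because of these transcripts, so their own T cell levels are given as a description with no test, and each group comparison is also given without them. Read numbers are not kept by TPM values, so the depth behind each level is unknown.

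T cells recognise peptides on MHC molecules through a receptor whose antigen-binding chains signal through the CD3 subunits. The coreceptors CD4 and CD8 bind MHC class II and class I and carry the kinase LCK to the receptor, where it phosphorylates the CD3 tails. TCF7 and LEF1 are related HMG-box transcription factors of developing and naive T cells, and FOXP3 defines regulatory T cells, which in lean visceral fat are known for restraining inflammation. The mouse inguinal pad surrounds a lymph node, in which naive T cells and B cells gather. In whole-tissue RNA, fewer T cells and less RNA per T cell cannot be told apart.

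The CD3 genes lie together on chromosome 9 (GRCm38, GENCODE M21). Cd3g spans 44969572 to 44980431 on the minus strand, Cd3d spans 44981786 to 44987339 on the plus strand and Cd3e spans 44998740 to 45009627 on the minus strand. The starts of Cd3g and Cd3d point away from each other and are 1355 bp apart. Because these neighbours were high in the same libraries, the 250 bases before each RefSeq start (build GRCm38.p6) are shown, 5′ to 3′ on the strand of the gene, at chr9:44980432-44980681 for Cd3g, chr9:44981536-44981785 for Cd3d and chr9:45009612-45009861 for Cd3e. Capitals mark the letters AGGAAG or its reverse complement CTTCCT, the core of many ETS factor sites, and CTTTGAT or ATCAAAG, a form of the TCF/LEF site.
Cd3g: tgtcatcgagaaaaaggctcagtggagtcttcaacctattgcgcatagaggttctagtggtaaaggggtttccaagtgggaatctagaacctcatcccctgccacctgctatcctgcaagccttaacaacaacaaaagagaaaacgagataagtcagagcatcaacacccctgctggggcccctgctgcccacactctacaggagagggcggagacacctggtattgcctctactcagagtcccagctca
Cd3d: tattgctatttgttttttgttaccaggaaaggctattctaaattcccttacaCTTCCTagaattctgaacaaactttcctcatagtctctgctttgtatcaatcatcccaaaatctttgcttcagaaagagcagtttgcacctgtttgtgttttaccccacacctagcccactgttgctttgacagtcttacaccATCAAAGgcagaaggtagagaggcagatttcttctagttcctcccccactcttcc
Cd3e: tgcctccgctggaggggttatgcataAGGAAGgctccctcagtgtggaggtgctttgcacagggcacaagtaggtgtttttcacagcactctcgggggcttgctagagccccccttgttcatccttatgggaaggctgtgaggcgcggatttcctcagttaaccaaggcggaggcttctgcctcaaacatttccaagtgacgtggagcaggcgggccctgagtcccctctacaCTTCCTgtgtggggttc

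In these windows the Cd3d sequence held the TCF/LEF letters once, at positions -55 to -49 counted from the start, and the ETS letters once, at -198 to -193. Cd3e held the ETS letters at -224 to -219 and at -17 to -12, and Cd3g held neither motif. RefSeq windows were found for 8 of the 10 genes (14 windows, some overlapping). The ETS letters stood in 6 of these 14 windows (42.9%), belonging to Cd3d, Cd3e, Foxp3, Lck and Lef1, against 29.5% of all 32851 promoter windows of this length. The TCF/LEF letters stood in 1 of 14 (7.14%) against 3.21% of all windows. The RUNX letters TGTGGT or ACCACA stood in 1 of 14, upstream of Lck, against 4614 of the 32851 windows. Both strands were searched, and a match is a description of letters, not of a bound site.

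The remaining genes are spread over the genome, apart from the CD8 chains. Cd8b1 (71322788 to 71337494) and Cd8a (71373427 to 71379173) lie on the plus strand of chromosome 6 with starts 50639 bp apart, and Cd4 lies on the minus strand of the same chromosome (124864692 to 124888221). Lck lies on chromosome 4 (129548344 to 129573641, minus), Lef1 on chromosome 3 (131110471 to 131224356, plus), Tcf7 on chromosome 11 (52252371 to 52283014, minus) and Foxp3 on the X chromosome (7573644 to 7595245, plus). Foxp3 overlaps the protein-coding genes Ppp1r3f and Ccdc22 on the other strand, and Cd3e, Lef1 and Tcf7 each overlap an antisense gene. The library kit keeps strand, but whether strand was used in the quantification is not given in the sources used here, so reads of these overlapping genes may not be fully separated.

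All 10 genes were higher in WT_HFD 2 and in Null_HFD 3 than in each of the other 8 libraries. Of all 16932 genes tested, 16.0% were above the other 8 in both of these libraries, and nothing is read from the count of members since these libraries were set apart for lymph node transcripts. Relative to the median of the other 8 libraries, the 10 genes were 3.70-fold (Foxp3) to 77.4-fold (Cd8b1) higher in WT_HFD 2, with a median of 15.1-fold. In Null_HFD 3 they were 9.22-fold (Foxp3) to 236-fold (Cd8b1) higher, with a median of 44.2-fold. Except for Foxp3, the genes (9 of 10) were at least 5-fold above that median in both, as were 2.4% of all tested genes. Nothing is read from this count either, for the same reason. Cd8b1 and Foxp3 passed the filter on low values only through these libraries. The median of Cd8b1 in the other 8 was 0.356 TPM, so its fold values rest on a level near 0.

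**Figure D1:**
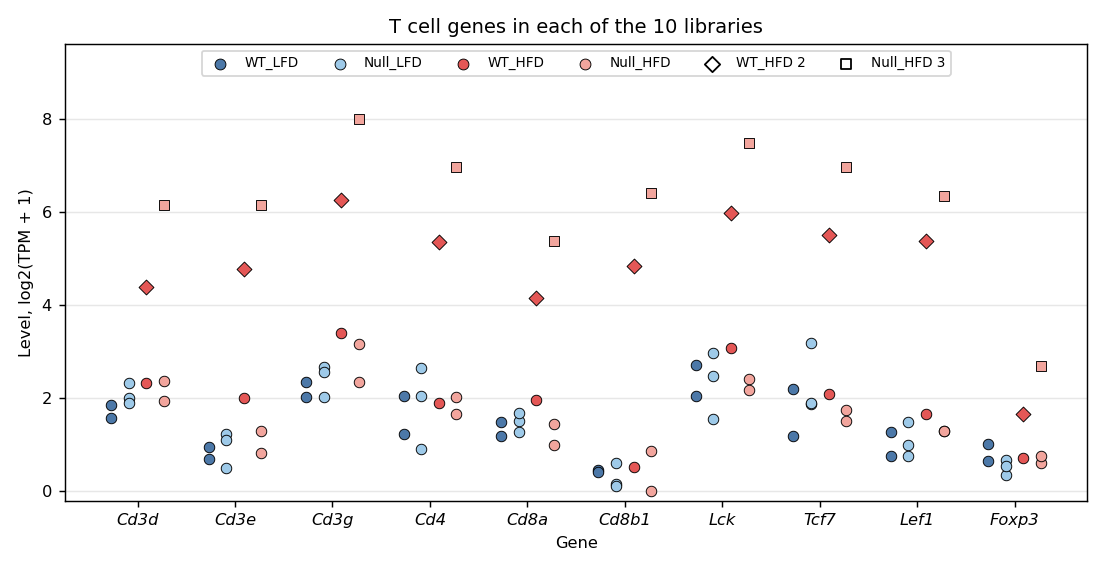
Level of each T cell gene as log2(TPM + 1) (vertical axis) in the 10 libraries, coloured by group, with WT_HFD 2 as diamonds and Null_HFD 3 as squares. Both of these libraries lie above all circles for every gene, with Null_HFD 3 the higher of them, and the single WT_HFD circle is the highest circle for 5 genes.

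The CD3 subunits, the signalling part of the receptor, were present at a few TPM in most pads. Cd3d, the delta chain, measured 1.98 and 2.62 TPM in WT_LFD, 3.01, 4.02 and 2.72 TPM in Null_LFD, 4.05 and 19.9 TPM in WT_HFD, and 4.20, 2.85 and 69.8 TPM in Null_HFD. Cd3e, the epsilon chain, measured 0.628 and 0.927 TPM in WT_LFD, 1.35, 1.15 and 0.423 TPM in Null_LFD, 3.04 and 26.5 TPM in WT_HFD, and 0.768, 1.45 and 69.6 TPM in Null_HFD. Cd3g, the gamma chain, measured 3.08 and 4.06 TPM in WT_LFD, 5.36, 4.92 and 3.08 TPM in Null_LFD, 9.63 and 75.0 TPM in WT_HFD, and 7.93, 4.08 and 255 TPM in Null_HFD. WT_HFD 2 and Null_HFD 3 were highest for all 3 chains, and WT_HFD 1 came next for Cd3e and Cd3g. The low-fat and high-fat libraries overlapped for each chain and for the other 7 genes, where 2.0% of all tested genes did not overlap. Wild-type and null libraries of the high-fat diet also overlapped for all 10 genes, where 15.5% of tested genes did not. On the low-fat diet, Cd3d was the only one of the 10 genes whose null libraries all lay above both wild-type libraries, where 19.1% of all tested genes did so.

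Summed over the 3 chains, CD3 transcripts took 5.68 (WT_LFD 1) to 16.7 TPM (WT_HFD 1) in the other 8 libraries, with a median of 9.05 TPM, against 121 TPM in WT_HFD 2 and 394 TPM in Null_HFD 3. By this sum WT_HFD 1 and Null_HFD 1 (12.9 TPM) led the other 8, followed by Null_LFD 2 (10.1 TPM) and Null_LFD 1 (9.73 TPM). The median level was highest for Cd3g among all 10 genes, and Cd3g also ranked 1 in both WT_HFD 2 and Null_HFD 3.

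Cd4, the coreceptor of helper and regulatory T cells, measured 3.17 and 1.34 TPM in WT_LFD, 5.31, 3.14 and 0.880 TPM in Null_LFD, 2.74 and 39.6 TPM in WT_HFD, and 3.06, 2.18 and 124 TPM in Null_HFD. Lck, the coreceptor-bound kinase, measured 5.57 and 3.16 TPM in WT_LFD, 4.57, 6.82 and 1.92 TPM in Null_LFD, 7.40 and 61.4 TPM in WT_HFD, and 4.30, 3.52 and 178 TPM in Null_HFD. For both genes the lowest library was Null_LFD 3. The groups overlapped for Cd4. For Lck, 1 of 7 such genes among the 10, both WT_HFD libraries lay above both WT_LFD libraries, where 33.7% of all tested genes did so. One of these WT_HFD libraries is WT_HFD 2, set apart for lymph node transcripts.

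The chains of CD8, the coreceptor of cytotoxic T cells, did not keep the same proportion in all libraries. Cd8a, the alpha chain, which dendritic cells and some innate-like lymphocytes also carry as a homodimer, measured 1.81 and 1.30 TPM in WT_LFD, 1.85, 2.21 and 1.42 TPM in Null_LFD, 2.89 and 16.7 TPM in WT_HFD, and 1.01, 1.75 and 40.4 TPM in Null_HFD. Cd8b1, the beta chain, which conventional cytotoxic T cells pair with the alpha chain, measured 0.374 and 0.338 TPM in WT_LFD, 0.123, 0.538 and 0.0854 TPM in Null_LFD, 0.436 and 27.5 TPM in WT_HFD, and 0.813, 0 and 83.8 TPM in Null_HFD. Cd8b1 was thus under 1 TPM in all 8 other libraries and was listed at 0 in Null_HFD 2, while Cd8a reached 1 TPM in all of them. Divided library by library, Cd8b1 over Cd8a was 1.65 in WT_HFD 2 and 2.08 in Null_HFD 3, against 0 to 0.808 with a median of 0.179 in the other 8. By level Cd8b1 ranked 10 of the 10 genes in the other 8 libraries, 6 in WT_HFD 2 and 5 in Null_HFD 3. The ratio of Cd4 to Cd8a did overlap, at 2.37 and 3.07 in WT_HFD 2 and Null_HFD 3 and 0.620 (Null_LFD 3) to 3.05 (Null_HFD 1) elsewhere.

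Tcf7, the factor TCF1 of naive and memory T cells, measured 3.60 and 1.30 TPM in WT_LFD, 2.69, 2.74 and 8.05 TPM in Null_LFD, 3.28 and 44.5 TPM in WT_HFD, and 2.34, 1.87 and 124 TPM in Null_HFD. Its value in Null_LFD 3 was the highest of the other 8 libraries, although Cd3e, Cd3g, Cd4 and Lck were lowest there. Per 100 TPM of CD3 transcripts, Null_LFD 3 held 130 TPM of Tcf7 against 17.0 to 63.3 TPM in the other 9 libraries. In the same library the proliferation gene Mki67 measured 79.5 TPM (2.68 to 18.6 TPM elsewhere) and the basal keratin gene Krt5 42.3 TPM (6.87 to 32.0 TPM elsewhere). Of the other listed basal genes, Krt14 (51.5 TPM) and Trp63 (23.2 TPM) were also highest there, and Oxtr (10.9 TPM) was not. Summed basal genes took 128 TPM in Null_LFD 3 and 125 TPM in Null_LFD 2, where Tcf7 was 2.74 TPM. The part of proliferating or basal cells in the Tcf7 level was not tested. Lef1, its relative, measured 1.43 and 0.688 TPM in WT_LFD, 0.985, 1.79 and 0.696 TPM in Null_LFD, 2.17 and 40.5 TPM in WT_HFD, and 1.45, 1.47 and 80.2 TPM in Null_HFD. Lef1 was not high in Null_LFD 3, where Lef1 over Tcf7 was 0.0864 against 0.367 to 0.910 in the other 9 libraries.

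Foxp3 was low everywhere and differed least between libraries. It measured 1.01 and 0.581 TPM in WT_LFD, 0.276, 0.600 and 0.450 TPM in Null_LFD, 0.648 and 2.18 TPM in WT_HFD, and 0.517, 0.704 and 5.44 TPM in Null_HFD. Only WT_LFD 1 reached 1 TPM among the other 8 libraries, so Foxp3, like Cd8b1, entered the tests through WT_HFD 2 and Null_HFD 3. Per 100 TPM of CD3 transcripts, Foxp3 stood at 1.80 TPM in WT_HFD 2 and 1.38 TPM in Null_HFD 3, below the 2.84 (Null_LFD 1) to 17.8 TPM (WT_LFD 1) of the other 8, whose median was 6.59 TPM.

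**Figure D2:**
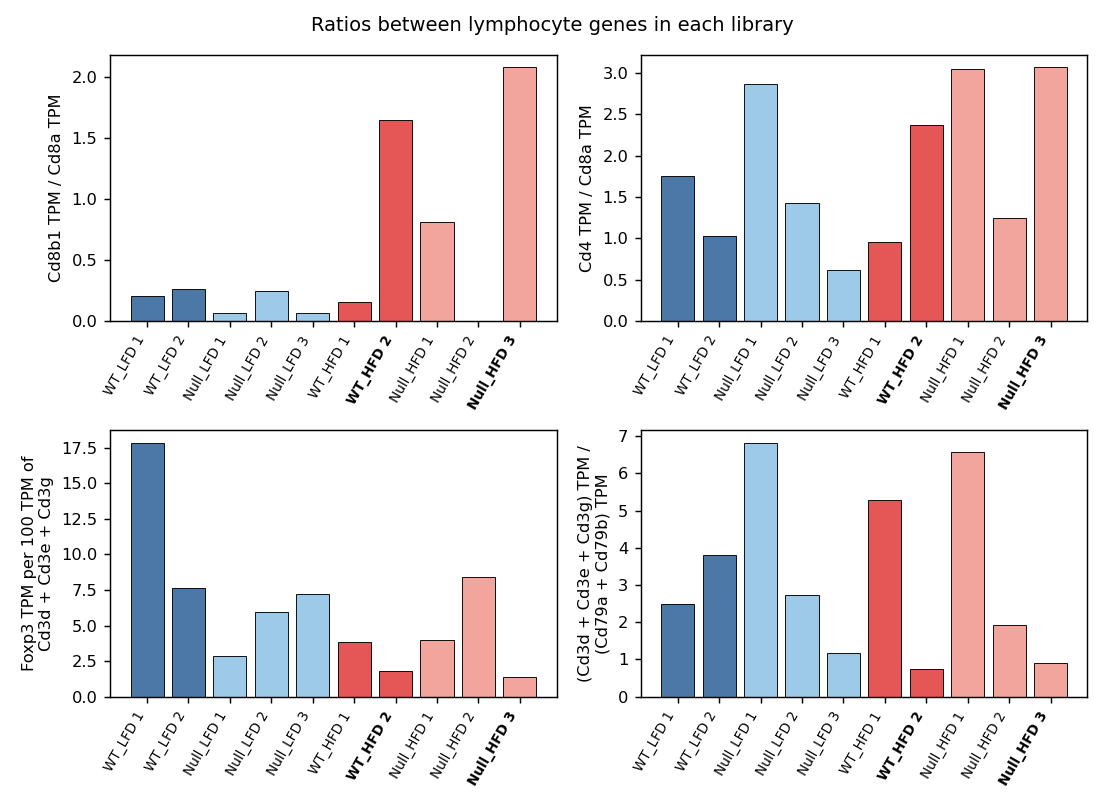
Ratios of TPM values within each library (vertical axes from 0), with bars coloured by group and the names of WT_HFD 2 and Null_HFD 3 in bold. Cd8b1 over Cd8a was highest (1.65 and 2.08) and Foxp3 per CD3 transcript lowest (1.80 and 1.38 TPM per 100 TPM) in these libraries, while Cd4 over Cd8a overlapped.

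Of the 2 libraries set apart, Null_HFD 3 was the higher for all 10 genes. It exceeded WT_HFD 2 by 1.98-fold (Lef1) to 3.50-fold (Cd3d), with a median of 2.85-fold over the 10 genes. The B cell list (8 of 8 genes above the other 8 libraries in both, 5 of them passing the filter within those 8) had a median ratio of 2.58 between them, and the list of lymph node stroma and venule genes (6 of 6, 5 of them passing there) had 2.39. Of all tested genes 16.0% were above in both. Here and for the lists below, such counts describe libraries that were set apart for lymph node transcripts and are no test. Summed B cell genes took 462 and 1130 TPM in WT_HFD 2 and Null_HFD 3 against 8.52 to 16.8 TPM in the other 8. Summed stroma and venule genes, among them the chemokine genes Ccl19 and Ccl21a, took 1191 and 2677 TPM against 8.41 to 56.8 TPM. Skeletal muscle genes moved the other way, with sums of 148 and 67.4 TPM against 1181 to 6613 TPM. Dendritic cell genes, from cells that can also carry CD4 or CD8 alpha, summed to 85.4 and 187 TPM against 8.80 to 17.4 TPM, with 3 of 5 genes above the other 8 in both. Ccl22 (45.8 and 85.7 TPM) and Siglech (26.5 and 68.8 TPM) made up most of this sum, and Xcr1 and Clec9a, markers of the dendritic cells with CD8 alpha, overlapped the other 8. The part of these other cell types in the T cell values was not tested. CD3 transcripts were 0.731 and 0.896 of the summed B cell receptor genes Cd79a and Cd79b in WT_HFD 2 and Null_HFD 3, and 1.16 to 6.82 of them in the other 8.

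**Figure D3:**
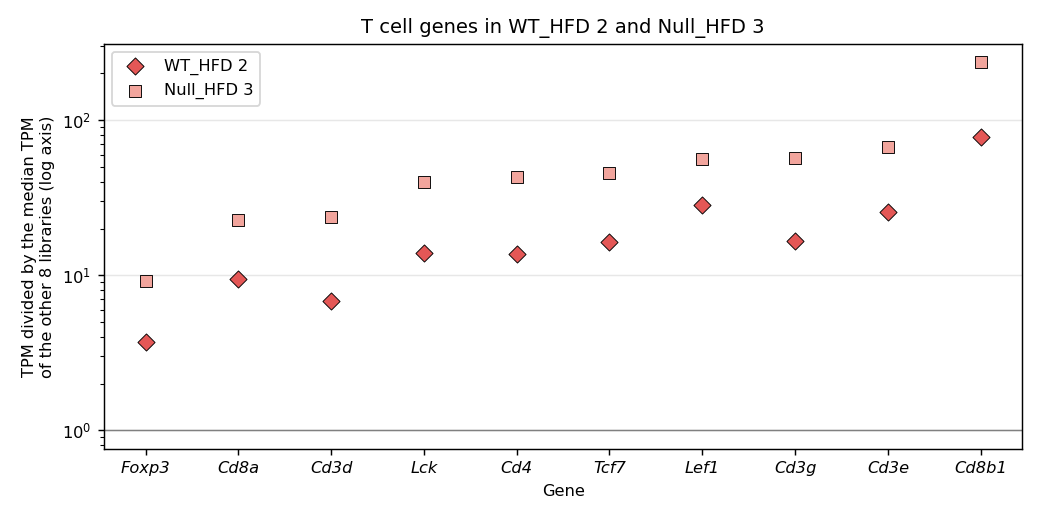
TPM of each T cell gene in WT_HFD 2 (diamonds) and Null_HFD 3 (squares) divided by the median of the other 8 libraries, on a log axis, with genes ordered by Null_HFD 3. Foxp3 stands at the low end (3.70-fold and 9.22-fold) and Cd8b1 at the high end (77.4-fold and 236-fold, over a median of only 0.356 TPM).

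Other T cell genes were read from 6 lists with 72 entries, of which 71 were in the table and 66 passed the filter on low values. In WT_HFD 2 and Null_HFD 3 22 of 22 genes of the receptor and proximal signalling list were above the other 8 libraries. Of these, 4 (Cd5, Cd6, Trat1 and Sit1) passed the filter only through WT_HFD 2 and Null_HFD 3 and so had to be higher there, and the remaining 18 were all above as well. Among all genes that passed the filter within the other 8 libraries, 15% (2464 of 16384) were above in both. The constant region gene Trbc2 of the receptor beta chain measured 238 and 631 TPM against 4.52 to 13.5 TPM, and the pan-leukocyte phosphatase gene Ptprc (CD45) 358 and 773 TPM against 36.2 to 62.0 TPM. Genes of naive and recirculating T cells were above for 8 of 9 (6 of the 7 that passed within the other 8). Among the genes above was Ccr7 (33.8 and 122 TPM against 0.232 to 1.08 TPM), whose chemokine receptor guides lymphocytes into lymph nodes. Ccr7 and Bcl11b passed the filter only through WT_HFD 2 and Null_HFD 3, so the filter itself favoured higher levels there. The exception was Gata3, at 24.3 and 10.1 TPM against 9.92 to 30.7 TPM, a factor that mammary epithelium also expresses. Costimulation and coinhibition genes were above for 10 of 12 (5 of the 7 that passed within the other 8), with Lag3 (11.5 and 7.82 TPM against 4.12 to 10.7 TPM) and Tigit as the exceptions.

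Effector, regulatory and innate-like genes were counted in the same way, and differences between lists were not tested. Of the cytotoxic and effector genes, 6 of 10 were above the other 8 libraries in both (5 of the 9 that passed within the other 8), led by the chemokine gene Ccl5 (103 and 395 TPM against 4.86 to 18.0 TPM), whereas the granzyme gene Gzma was at 5.60 and 2.60 TPM against 2.07 to 13.1 TPM. Of the regulatory T cell genes other than Foxp3, 2 of 7 were. These were Il2ra (7.32 and 13.8 TPM against 1.17 to 5.50 TPM) and Tnfrsf18 (20.1 and 40.1 TPM against 4.55 to 14.8 TPM). Ikzf2 (Helios) was among those that overlapped, at 11.2 and 23.4 TPM against 7.38 to 17.5 TPM. Of the gamma-delta and innate-like genes, 1 of 6 was, a share near the 15% of all genes. The natural killer cell list had 2 of 5. These were Klrd1 (28.4 and 39.4 TPM against 3.58 to 12.2 TPM) and Klrk1 (13.2 and 19.7 TPM against 3.26 to 9.73 TPM). Its defining receptor gene Ncr1 measured 4.69 and 9.02 TPM, within the 2.97 to 11.0 TPM of the other 8. The relatives Tcf7l1 and Tcf7l2 of Tcf7 were not above the other 8, at 10.6 and 5.65 TPM against 6.40 to 11.5 TPM for Tcf7l1, and 26.6 and 8.19 TPM against 14.2 to 35.4 TPM for Tcf7l2. Among thymocyte genes, Rag1 was listed at 0.0791 TPM at most. Rag2 (0.555 and 0.369 TPM against 0.292 to 1.03 TPM) and Ptcra (1.40 and 1.02 TPM against 0.721 to 2.77 TPM) overlapped the other 8. Dntt (terminal transferase) measured 1.03 and 5.95 TPM against at most 0.110 TPM in the other 8. It passed the filter only through WT_HFD 2 and Null_HFD 3 and so had to be higher there.

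**Figure D4:**
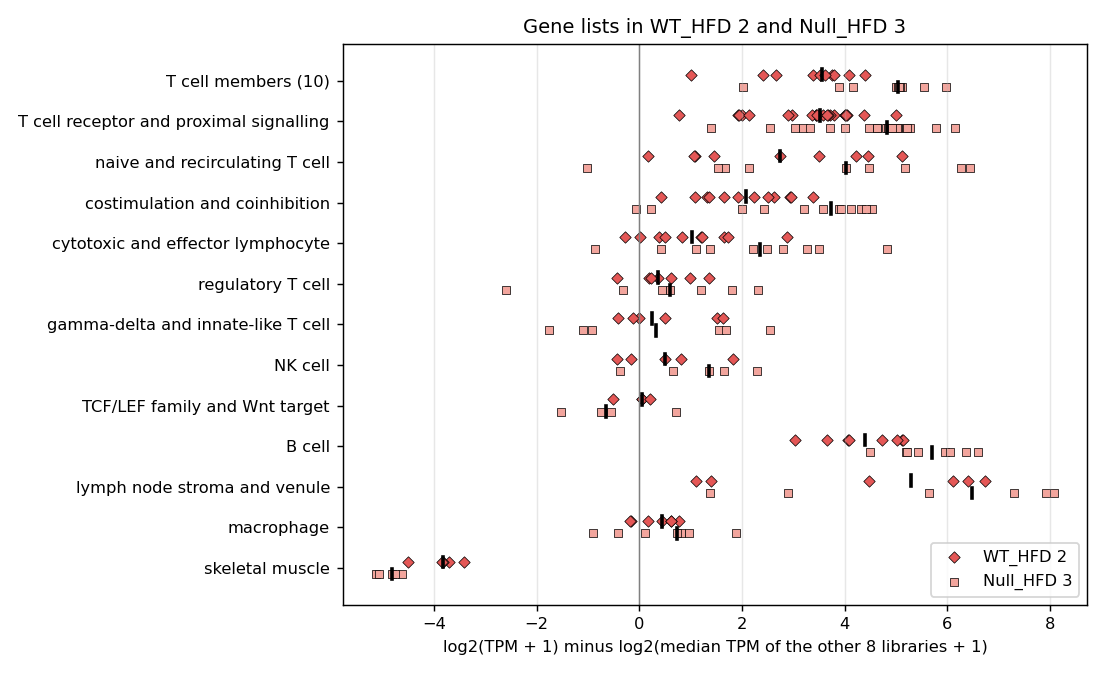
Difference in log2(TPM + 1) between WT_HFD 2 (diamonds) or Null_HFD 3 (squares) and the median of the other 8 libraries, with 1 point per tested gene and a black bar at the list median. The T cell members, receptor signalling, B cell and lymph node stroma lists lie to the right, the regulatory, gamma-delta, TCF/LEF and macrophage lists near 0, and skeletal muscle to the left.

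Among the other 8 libraries, no library was high or low for all T cell genes. WT_HFD 1 was the highest of the 8 for 5 genes (Cd3e, Cd3g, Cd8a, Lck and Lef1) and Null_HFD 1 for 2 (Cd3d and Cd8b1), while Null_LFD 3 was the lowest for 4. On the log2(TPM + 1) scale the SD over the 8 was from 0.19 (Foxp3) to 0.58 (Tcf7). Across these 8 libraries the mean log2 level of the CD3 genes had a Pearson r of 0.68 with Lef1, 0.62 with Lck, 0.50 with Cd8a, 0.41 with Cd4 and -0.29 with Tcf7, given as a description of libraries that share their groups. The genes most like the CD3 mean over these 8 libraries, out of 15438 compared, were Ctse (cathepsin E, r = 0.97), the interferon-induced Oas3 (r = 0.96) and Gbp6 (r = 0.95), the translation factor gene Eif4a2 (r = 0.95), Serac1 (r = 0.94), the transcription factor gene Usf1 (r = 0.93), Prss12 (r = 0.93) and the predicted or unnamed 7530416G11Rik, Gm10775 and Gm10702. These r values are the highest of 15438 over only 8 libraries, so they are raised by the selection and are a description without a test. Ctse was also high in WT_HFD 2 and Null_HFD 3 (34.9 and 78.5 TPM against 2.44 to 4.82 TPM). Eif4a2 was above the other 8 in both (3130 and 5011 TPM against at most 3105 TPM). The remaining genes named here were not, among them Gbp6 (18.5 and 9.71 TPM against 15.6 to 36.6 TPM).

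The groups were compared with limma on log2(TPM + 1) across all 16932 genes, with a call at a Benjamini-Hochberg adjusted p of at most 0.05. The high-fat diet was compared with the low-fat diet to ask which transcripts followed the diet. All 10 genes had higher means on the high-fat diet averaged over the genotypes, but 0 of 10 were called (background 0.0% of tested genes), and 1, Cd3g, had an unadjusted p under 0.05, as did 9.69% of all genes. The differences ran from 0.60 (SE 0.43) for Foxp3 to 2.36 (SE 1.03) for Cd3g, with a median of 1.87 against 0.11 over all genes tested. The limma adjusted p values ran from 0.513 to 0.607. WT_HFD 2 and Null_HFD 3 are both high-fat libraries, and without them 8 of the 10 genes were still tested, with a median of 0.34 against 0.06 over all genes. In that fit Cd3g differed by 0.78 (SE 0.29, limma adjusted p = 0.845) and Tcf7 turned to -0.15 (SE 0.41). Again 0 were called (background 0.0%), and 1 of the 8, Cd3g, had an unadjusted p under 0.05, as did 5.7% of all genes.

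Within wild type, 7 of the 10 genes (Cd3d, Cd3e, Cd3g, Cd8a, Cd8b1, Lck and Lef1) had both high-fat libraries above both low-fat libraries, where 33.7% of all tested genes did. For Cd8b1 the lower of the high-fat libraries was only at 0.436 TPM against 0.374 TPM. None was called by limma (background 0.0%, with 5.61% of genes at an unadjusted p under 0.05 and 0 of the 10), and Cd3g differed by 2.64 (SE 1.60). Without WT_HFD 2 and Null_HFD 3, when WT_HFD 1 alone stood for the group and was taken to vary like the other groups, Cd3g differed by 1.23 (SE 0.47) and Cd3e by 1.19 (SE 0.49, limma adjusted p = 1 for both). These 2 of 8 had an unadjusted p under 0.05, as did 3.48% of all genes, and 0 were called (background 0.0%). Within null pads 0 of 10 genes separated the diets, against 11.1% of all genes. None was called there (background 0.00591%, with 6.67% at an unadjusted p under 0.05 and 0 of the 10). Without these libraries the null differences lay between -0.69 (Tcf7) and 0.33 (Cd3g), with 0 of 8 called (background 0.0122%).

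Null and wild-type pads were then compared, for the effect of genotype on the same genes. Averaged over the diets, 3 of the 10 genes were higher and 7 lower in null pads, from -0.27 (SE 1.04) for Lck to 0.24 (SE 0.78) for Cd3d, with a median of -0.11 against 0.08 over all genes. Called genes numbered 0 of 10 (background 0.0%, and 4.19% of genes against 0 of the 10 at an unadjusted p under 0.05), the limma adjusted p values being 0.995 to 0.998. The wild-type and null libraries overlapped for all 10 genes, where 0.921% of all genes did not overlap. Without WT_HFD 2 and Null_HFD 3, which lie in opposite genotypes, the median over 8 genes was -0.18, with SEs of 0.25 (Cd3d) to 0.45 (Cd4) in place of 0.78 (Cd3d) to 1.11 (Tcf7) for the same genes in 10 libraries.

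The low-fat comparison holds neither of these libraries, although its errors are estimated over all groups. Null minus wild type ran from -0.31 (SE 0.61) for Foxp3 to 0.62 (SE 1.56) for Tcf7, with a median of 0.13 against 0.15 over all genes, and 0 of 10 were called (background 0.0%, and 4.43% against 0 of the 10 at an unadjusted p under 0.05). The Tcf7 difference was 0.12 without WT_LFD 2 and 1.12 without WT_LFD 1. When the errors came from the 8 libraries alone, Cd3d differed by 0.36 (SE 0.30, limma adjusted p = 0.743). On the high-fat diet each genotype holds 1 of the libraries set apart, and the differences ran from -0.65 (SE 1.42) for Cd3e to 0.16 (SE 0.61) for Foxp3, with 0 of 10 called (background 0.0118%, and 3.82% against 0 of the 10 at an unadjusted p under 0.05). Without them all 8 genes tested had lower means in null pads, from -0.96 (SE 0.49) for Cd3e to -0.06 (SE 0.72) for Cd4. Their median was -0.56 against 0.07 over all genes. Each of these differences set 2 null libraries against WT_HFD 1 alone, which was the highest of the 8 libraries for 5 genes, so the shared direction rests on 1 library. The genotype by diet interaction was largest for Tcf7 (-1.01, SE 2.21) and called for 0 of 10 (background 0.0%, and 4.14% against 0 of the 10 at an unadjusted p under 0.05). These comparisons share libraries and are not independent of each other.

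**Figure D5:**
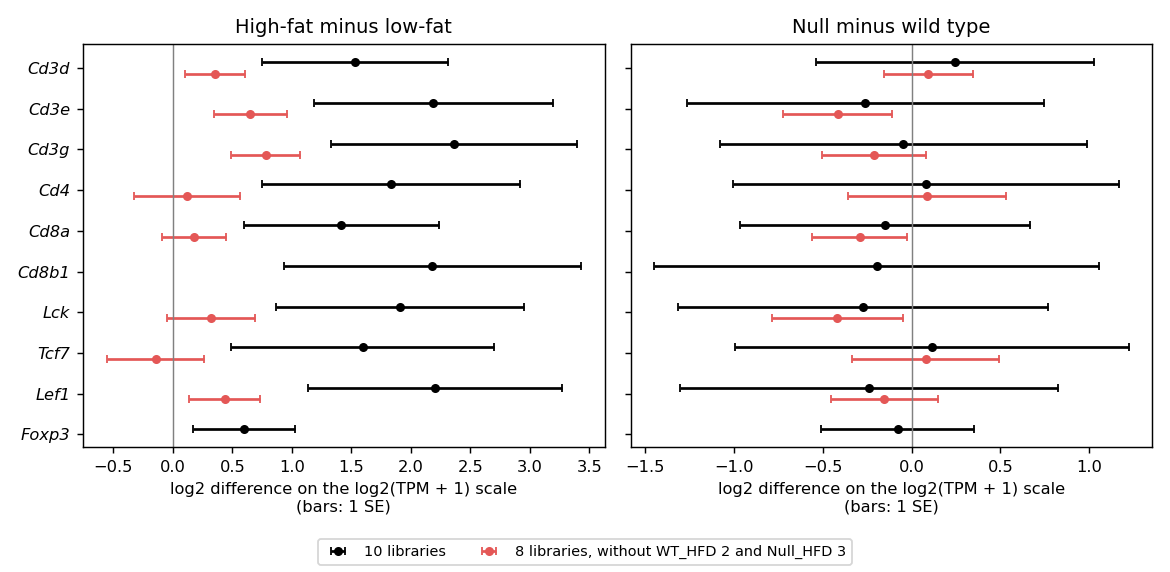
Difference of group means with 1 SE (horizontal axes, log2(TPM + 1) scale) for each T cell gene, from the fit to 10 libraries (black) and to 8 libraries (red). The diet differences of 0.60 to 2.36 shrink to between -0.15 and 0.78 without WT_HFD 2 and Null_HFD 3, and the genotype differences lie around 0, with Cd8b1 and Foxp3 not tested in 8 libraries.

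The other T cell lists gave no calls in these comparisons either. For diet averaged over the genotypes, 61 of 66 genes were higher on the high-fat diet, with a median of 1.11 against 0.11 over all genes, and 11 of 66 had an unadjusted p under 0.05, beside 9.69% of all genes. Without WT_HFD 2 and Null_HFD 3, both high-fat libraries, 54 genes passed the filter. Of these 39 were higher, with a median of 0.26 against 0.06, and 7 had an unadjusted p under 0.05, beside 5.7% of all genes. Zbtb16 (PLZF), a factor of innate-like T cells, differed by 1.11 between the diets (SE 0.41, limma adjusted p = 0.513). It measured 10.9 to 24.4 TPM on the low-fat and 11.5 to 71.9 TPM on the high-fat diet. Its level was 71.9 TPM in WT_HFD 2 but 11.5 TPM in Null_HFD 3, the highest library for all T cell members. Which cells gave the Zbtb16 level was not tested. Il1rl1, the receptor for interleukin 33 on regulatory T cells of fat and other cells, differed by 0.75 (SE 0.21, limma adjusted p = 0.513). It measured 3.70 to 4.91 TPM on the low-fat and 5.07 to 11.8 TPM on the high-fat diet, without overlap. Cd2 (at most 4.98 TPM on the low-fat, at least 6.07 TPM on the high-fat diet) and Cd247 (3.39 and 4.26 TPM) did not overlap either. Nor did Tigit (4.11 and 4.73 TPM) and Il2rb (5.23 and 5.49 TPM). The high-fat side includes WT_HFD 2 and Null_HFD 3. Of all tested genes, 1.59% did not overlap in this direction. For genotype averaged over the diets, 36 of 66 were higher in null pads, with a median of 0.03 against 0.08, and the smallest p was that of Ikzf4 (Eos) at -1.16 (SE 0.41, limma adjusted p = 0.98).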

How the data were processed

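Bulk RNA was measured in 10 libraries. Per the submitters' processing notes, kallisto, limma and the build GRCm38 were used, and no versions or settings are named there. The deposited values are log2(TPM + 1), a reading taken from the values themselves, since they give TPM sums of 946103 to 954463 after 1 is taken off the antilog. The line without a symbol (at most 0.0108% of TPM) was left out.

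Genes at 1 TPM or more in at least 2 libraries (16932) were fitted with limma 3.58.1 in R 4.3.3 on log2(TPM + 1), with 4 group means over all 10 libraries, a trended prior and Benjamini-Hochberg adjustment over all genes tested. Fold changes on this scale understate the change of low genes. The fit was tested on simulated data. The members and lists were chosen with earlier results of these data known. Named genes were all 10 members, up to 4 genes of each other T cell list (highest mean in the 8 libraries, or smallest p) and the 10 genes most like the CD3 mean; other named genes, such as Trbc2, Ccr7, Ccl5 and Ncr1, were chosen after their values were seen. Alternatives were another pseudocount, filter, scaling and prior, sample weights, a replicate block, and libraries left out.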

Additional observations from a re-analysis of the deposited data

How the results depend on the processing

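In 17 alternative settings 0 of the 10 T cell genes were called by limma in any of the 7 comparisons, and the smallest adjusted p was 0.328. Cd8b1 and Foxp3 fell below the filter in some settings. Leaving out 1 library at a time moved the median diet difference of 1.87 between 0.98 (without Null_HFD 3) and 2.66 (without WT_HFD 1), with no change of direction for a gene. The median genotype difference of -0.11 ran from -0.84 (without Null_HFD 3) to 0.66 (without WT_HFD 2). By gene, these genotype ranges averaged over the diets were -0.42 to 0.76 for Cd3d, -1.11 to 0.43 for Cd3e, -0.92 to 0.66 for Cd3g, -0.78 to 0.94 for Cd4, -0.84 to 0.40 for Cd8a, -1.27 to 0.41 for Cd8b1, -1.14 to 0.45 for Lck, -0.77 to 0.97 for Tcf7, -1.17 to 0.69 for Lef1 and -0.41 to 0.16 for Foxp3. On the low-fat diet they crossed 0 for Cd3e (-0.017 to 0.35), Cd4 (-0.19 to 0.71), Cd8a (-0.0016 to 0.29), Lck (-0.38 to 0.34) and Lef1 (-0.20 to 0.32). With sample weights the averaged genotype difference turned to -0.20 for Cd3d, -0.43 for Cd4 and -0.62 for Tcf7, and the low-fat one of Lck to 0.16. Median-of-ratios scaling turned Lef1 on the low-fat diet to -0.015. Without both WT_HFD 2 and Null_HFD 3 the diet difference of Tcf7 turned to -0.15. The cause of these turns was not tested.

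The labels do not say that equal replicate numbers mark shared animals, so the numbers were taken as names. Deviations of same-numbered libraries from their group means correlated from -0.346 to 0.412, and the differently numbered WT_HFD 2 and Null_HFD 3 reached 0.502. In groups of 2 libraries the deviations mirror each other, so these correlations cannot show or exclude pairing. With the replicate block the averaged genotype difference was -0.37 for Cd3d, -0.53 for Cd4 and -0.99 for Tcf7, and the low-fat one was -0.26 for Cd3d, -0.61 for Cd3e, -0.54 for Cd3g, -0.38 for Cd4, -0.49 for Cd8a, -0.48 for Tcf7 and -0.70 for Lef1. Groups of 2 or 3 libraries limit all comparisons, TPM values keep no depth, and most T cell genes outside WT_HFD 2 and Null_HFD 3 stood at a few TPM, where small differences cannot be resolved.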
